A study of Mus musculus with 20 samples.

Results

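Cxcl14, Cx3cl1 (fractalkine), Cxcl1, Cxcl2, Cxcl5 and Cxcl16, which are 6 chemokines, and Cx3cr1 and Cxcr6, which are 2 chemokine receptors, were followed across lymph nodes of 5 positions. They were picked by symbol, and all 8 were found once among 56258 genes of the count table. The list was drawn up with earlier results of these data in view. Gut-draining against inguinal nodes is treated as the contrast that chose the 8 genes, and their values in it are given as a description, with no p-value. Which values led to the choice is not recorded, so differences among the gut positions may have entered it too. P-values of the 8 genes among gut positions may therefore be too small, and their counts called too high. RNA came from whole lymph nodes of mice aged 9 weeks, all homozygous for the Rag1 null allele of the strain B6.129S7-Rag1tm1Mom/J, so every node lacks mature T and B lymphocytes and no wild-type node was compared. Duodenal, jejunal, ileal and ceco-colonic nodes drain the gut and the inguinal node drains skin. Each position gave 4 libraries, and the labels leave unsaid whether these are different animals. A p-value here therefore reflects only the scatter of the libraries, which may be technical. In bulk RNA, fewer cells of a type and less RNA per cell cannot be told apart.

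Chemokines are secreted or membrane-bound proteins that guide leukocytes through G protein-coupled receptors. CX3CL1 and CXCL16 are unusual in being made as transmembrane proteins, which metalloproteases such as ADAM10 and ADAM17 cut free. CX3CL1 acts on CX3CR1 of monocytes and macrophages, and CXCL16 acts on CXCR6 of innate lymphoid cells, natural killer cells and some T cells. CXCL1, CXCL2 and CXCL5 bind CXCR2 on neutrophils and are induced by interleukin 1, interleukin 17 and NF-kB signalling. CXCL14 is made without stimulation by epithelia and fibroblasts of many tissues, and its receptor is debated. The name stromal does not cover the receptors, which leukocytes carry, or Cxcl16, which macrophages and dendritic cells also make.

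Promoter sequences are shown for 2 neighbouring genes that no test called along the gut, Cxcl1 and Cxcl2, and for the pair that moved in opposite directions, Cxcl14 and Cx3cl1. RefSeq on GRCm38.p6 gave a window of 250 bases before to 50 bases after the start for 6 of the 8 genes. The windows were searched on both strands for a single spelling of the kB motif bound by NF-kB factors. That spelling is GGG, any 2 bases, then TTTCC. The GC box, written GGGCGG and bound by Sp1, was searched for as well. Capitals mark these matches. The windows lie at chr5:90890995-90891294 (plus strand) for Cxcl1, chr5:90903649-90903948 (plus strand) for Cxcl2, chr13:56296502-56296801 (minus strand) for Cxcl14 and chr8:94771930-94772229 (plus strand) for Cx3cl1.
Cxcl1: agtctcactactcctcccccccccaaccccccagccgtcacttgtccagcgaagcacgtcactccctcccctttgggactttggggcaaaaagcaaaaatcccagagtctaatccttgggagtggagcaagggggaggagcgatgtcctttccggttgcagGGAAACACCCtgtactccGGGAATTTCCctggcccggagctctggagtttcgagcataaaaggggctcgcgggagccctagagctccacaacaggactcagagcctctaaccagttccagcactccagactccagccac
Cxcl2: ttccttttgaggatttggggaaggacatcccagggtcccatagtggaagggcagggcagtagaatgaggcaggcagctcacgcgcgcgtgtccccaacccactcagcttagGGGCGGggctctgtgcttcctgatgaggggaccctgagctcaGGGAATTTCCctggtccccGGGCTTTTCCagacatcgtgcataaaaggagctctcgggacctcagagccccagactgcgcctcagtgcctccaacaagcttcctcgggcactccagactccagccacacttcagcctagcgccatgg
Cxcl14: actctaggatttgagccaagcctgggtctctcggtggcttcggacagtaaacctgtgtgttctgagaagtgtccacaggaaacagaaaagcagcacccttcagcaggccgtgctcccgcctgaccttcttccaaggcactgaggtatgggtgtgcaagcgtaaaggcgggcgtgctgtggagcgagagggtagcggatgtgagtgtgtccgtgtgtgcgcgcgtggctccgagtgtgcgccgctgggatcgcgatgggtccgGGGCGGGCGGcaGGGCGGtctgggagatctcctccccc
Cx3cl1: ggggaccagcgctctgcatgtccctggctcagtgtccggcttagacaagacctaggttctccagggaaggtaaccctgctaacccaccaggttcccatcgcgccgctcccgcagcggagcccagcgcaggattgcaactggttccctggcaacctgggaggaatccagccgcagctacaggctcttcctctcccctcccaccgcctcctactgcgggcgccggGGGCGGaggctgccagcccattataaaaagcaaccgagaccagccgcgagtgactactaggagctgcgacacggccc
Both Cxcl1 and Cxcl2 held 2 kB matches. In Cxcl1, GGGTGTTTCC on the opposite strand began 89 bases before the start and GGGAATTTCC began 71 bases before it. In Cxcl2, GGGAATTTCC began 97 bases and GGGCTTTTCC 78 bases before the start. A kB match was present in 1.63% of 32851 promoter windows of the same length, and none of the other 4 genes with a window had one. Other spellings of the kB motif were not searched, so sites of another spelling may be present. A GC box, found in 35.7% of all windows, began 139 bases before the start in Cxcl2 and 27 bases before it in Cx3cl1. Cxcl14 held 3 GC boxes that began 12, 16 and 24 bases after its start base, of which the first pair overlap. A match is a description of letters and does not show that a factor binds there.

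Per transcript length, Cxcl16 was the most abundant of the 8 genes at all 5 positions and Cxcl2 the least abundant. In gut-draining nodes Cxcl16 averaged 311.2 ± 53.4 TPM (transcript abundance scaled by length and library, SD, n = 16), Cx3cr1 36.8 ± 5.28 TPM, Cx3cl1 20.6 ± 10.2 TPM and Cxcr6 19.5 ± 4.75 TPM. Cxcl14 averaged 12.9 ± 4.85 TPM, Cxcl1 6.89 ± 1.42 TPM, Cxcl5 3.21 ± 1.39 TPM and Cxcl2 0.676 ± 0.23 TPM. The place of Cxcl14 in this order varied most: it ranked 4 in duodenal and jejunal nodes, 5 in ileal, 6 in ceco-colonic and 7 in inguinal nodes. The CXCR2 ligand genes stood below both membrane-bound chemokine genes at every position.

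Levels of a gene between libraries are given below in CPM (counts per M, mega counts, scaled by the TMM method), with tests from edgeR's quasi-likelihood fit and Benjamini-Hochberg adjustment over all 29411 genes tested. All 8 genes passed the filter on low counts. A gene was called at an adjusted p under 0.05. Among the 4 gut positions 21.3% of all genes were called, and 5 of the 8 genes were: Cxcl14, Cx3cl1, Cxcl5, Cxcl16 and Cxcr6. In small intestinal nodes (the mean of the duodenal, jejunal and ileal positions) against ceco-colonic nodes 16.6% of all genes were called, 8.90% higher and 7.74% lower. Of the 8, Cxcl14, Cxcl5 and Cxcr6 were higher and Cx3cl1 and Cxcl16 lower in small intestinal nodes. Their median log2 fold change was 0.26, beside 0.006 for all genes tested. Cx3cr1, Cxcl1 and Cxcl2 were called in neither comparison.

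The steps between positions were uneven. Between duodenal and jejunal nodes 2.83% of all genes were called, and between jejunal and ileal nodes 0.0680%, with none of the 8 in either. Duodenal against ileal nodes gave 14.6% of all genes and 3 of the 8. Against ceco-colonic nodes, 16.4% of all genes and 5 of the 8 were called for duodenal, 12.2% and 4 for jejunal, and 12.8% and 3 for ileal nodes.

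**Figure D1:**
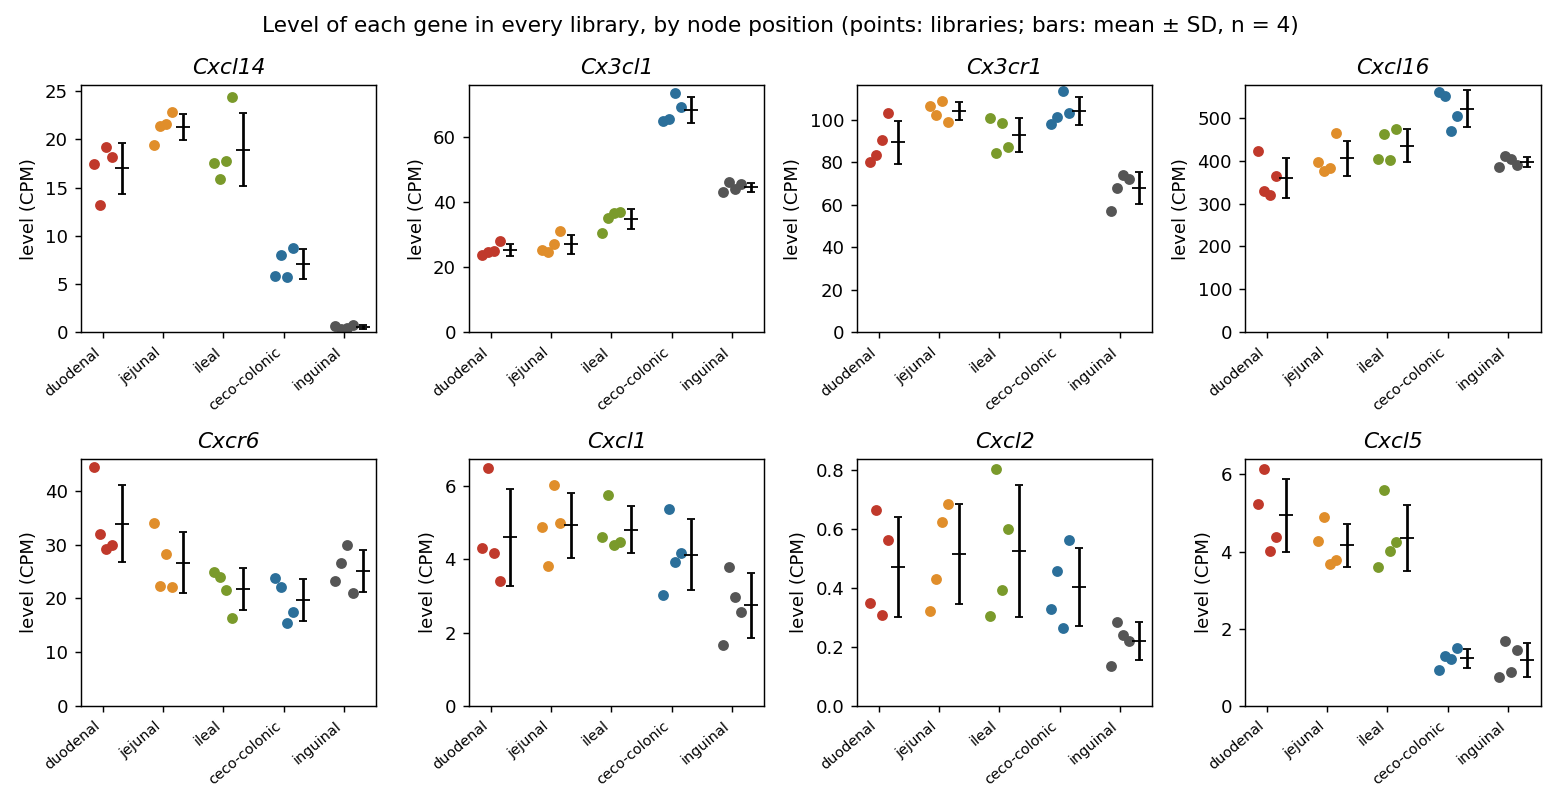
Level of each of the 8 genes in CPM (linear axis from 0) in every library, with positions along the gut from left to right and the inguinal node last; points are libraries and bars the mean ± SD of 4. Cxcl14 and Cxcl5 drop at the ceco-colonic position, Cx3cl1 and Cxcl16 are highest there, and Cxcl14 is near 0 in inguinal nodes.

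Cxcl14 (ENSMUSG00000021508) was high throughout small intestinal nodes, lower in ceco-colonic nodes and lowest in inguinal nodes, where it was still counted in every library. Its level was 17.5, 13.2, 19.2 and 18.1 CPM in the 4 duodenal libraries, 19.5, 21.4, 21.6 and 22.8 CPM in jejunal libraries and 17.6, 15.9, 17.8 and 24.4 CPM in ileal libraries. Ceco-colonic libraries held 5.80, 8.03, 5.73 and 8.72 CPM and inguinal libraries 0.696, 0.319, 0.444 and 0.795 CPM. No small intestinal library overlapped a ceco-colonic one, and no ceco-colonic library overlapped an inguinal one. Small intestinal nodes exceeded ceco-colonic nodes by a log2 fold change of 1.43 ± 0.18 (SE, edgeR adjusted p = 7.74e-06). From the highest position down, the order was jejunal, ileal, duodenal, ceco-colonic and inguinal. Among the first 3 no pair was called: the log2 fold change was 0.17 ± 0.20 for jejunal against ileal nodes and -0.15 ± 0.20 for duodenal against ileal nodes. Duodenal against jejunal nodes gave -0.32 ± 0.20 (edgeR adjusted p = 0.402), although their libraries did not overlap. Ileal and ceco-colonic nodes, the next neighbours along the gut, were separated by 1.42 ± 0.20 (edgeR adjusted p = 5.97e-05). Ceco-colonic nodes still stood 3.68 ± 0.23 above inguinal nodes.

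Cx3cl1 (ENSMUSG00000031778) ran the other way along the gut. Duodenal libraries held 23.8, 24.8, 24.9 and 28.1 CPM, jejunal libraries 25.3, 24.7, 27.2 and 31.1 CPM and ileal libraries 30.5, 35.0, 36.8 and 37.1 CPM. Ceco-colonic libraries held 64.9, 65.7, 73.6 and 69.2 CPM, and inguinal libraries 43.1, 46.2, 44.0 and 45.5 CPM. The inguinal range thus lay between the ileal and the ceco-colonic range, with no overlap on either side. Small intestinal nodes were lower than ceco-colonic nodes, with a log2 fold change of -1.25 ± 0.058 (edgeR adjusted p = 3.93e-11). Within the small intestine, duodenal nodes were lower than ileal nodes (-0.46 ± 0.076, edgeR adjusted p = 0.00099). Jejunal against ileal nodes gave -0.36 ± 0.076 and was not called (edgeR adjusted p = 0.107), although DESeq2 called it (adjusted p = 0.00763). That call was also made in edgeR on counts summed from transcripts (adjusted p = 0.00981) and without jejunal library 4 (adjusted p = 0.0255).

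Against the inguinal node Cx3cl1 was lower at 3 gut positions and higher at the other. Its log2 fold change was -0.82 ± 0.076 for the duodenal, -0.72 ± 0.076 for the jejunal, -0.36 ± 0.076 for the ileal and 0.61 ± 0.076 for the ceco-colonic position, while the mean of the 4 gut positions gave -0.32 ± 0.059. These 4 values share the inguinal libraries. The genes that encode the sheddases of CX3CL1 and CXCL16 and their partners, formed a list of 6. In small intestinal against ceco-colonic nodes 2 of 6 were higher and none lower, beside 8.90% and 7.74% of all genes. Timp3, an inhibitor of metalloproteases, stood at 282.2 ± 44.4 CPM in small intestinal and 181.2 ± 11.5 CPM in ceco-colonic nodes (SD, n = 12 and 4, edgeR adjusted p = 0.000304). Adam10 stood at 143.1 ± 8.49 and 130.4 ± 2.61 CPM in the same groups (edgeR adjusted p = 0.0359). The Adam10 call was lost in 7 of 29 alternatives, among them without ceco-colonic library 2, 3 or 4. In gut-draining against inguinal nodes Adam17 and Rhbdf2, which helps ADAM17 mature, were the called genes, with Adam17 at 127.8 ± 5.33 CPM in gut and 109.7 ± 5.71 CPM in inguinal nodes (SD, n = 16 and 4, edgeR adjusted p = 0.000295). Rhbdf2 stood at 69.7 ± 11.8 CPM in gut and 55.9 ± 3.73 CPM in inguinal nodes (edgeR adjusted p = 0.0132), and its call was lost without inguinal library 1.

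Cx3cr1 (ENSMUSG00000052336), the receptor of fractalkine, did not follow its ligand. Duodenal libraries held 80.2, 83.6, 90.7 and 103.1 CPM, jejunal libraries 106.4, 102.5, 108.8 and 98.8 CPM, ileal libraries 100.7, 84.6, 98.4 and 87.4 CPM and ceco-colonic libraries 98.1, 101.3, 113.6 and 103.3 CPM. Inguinal libraries held 57.1, 67.9, 73.9 and 72.2 CPM, and all lay below the lowest gut library. The difference between small intestinal and ceco-colonic nodes was -0.13 ± 0.070 on the log2 scale and was not called (edgeR adjusted p = 0.251). The F-test among the 4 gut positions gave an edgeR adjusted p of 0.117, which became 0.0366 without duodenal library 4. About 3.28% of the 31-base stretches of Cx3cr1 also occur in transcripts of unnamed gene models. The order of means was ceco-colonic and jejunal (104.1 CPM each), ileal (92.8 CPM), duodenal (89.4 CPM) and inguinal (67.8 CPM), and no pair of gut positions was called. Without duodenal library 4, duodenal against ceco-colonic nodes gave -0.28 and was called (edgeR adjusted p = 0.0259).

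Genes of Cx3cr1-bearing monocytes and macrophages moved in both directions. Of 15 in the list, 3 were higher and 5 lower in small intestinal than in ceco-colonic nodes, beside 8.90% and 7.74% of all genes. Csf1r, the receptor for macrophage colony-stimulating factor, stood at 895.5 ± 188.3 CPM in small intestinal and 666.7 ± 48.3 CPM in ceco-colonic nodes (SD, n = 12 and 4, edgeR adjusted p = 0.00109). Adgre1, which encodes the macrophage antigen F4/80, stood at 171.6 ± 42.5 and 112.6 ± 9.41 CPM in those groups (edgeR adjusted p = 0.000267). Ccr2, which brings monocytes out of the bone marrow, was lower, at 100.4 ± 10.7 CPM in small intestinal and 166.2 ± 24.3 CPM in ceco-colonic nodes (edgeR adjusted p = 3.64e-06). Lyz2, lysozyme of myeloid cells, was lower as well (edgeR adjusted p = 0.00189), a call lost with the adipocyte level as a covariate. In gut-draining against inguinal nodes, where 13.4% of all genes were called higher and 12.9% lower, 3 of the 15 were higher and 5 lower. Ccr2 averaged 116.9 ± 32.7 CPM in gut and 204.1 ± 21.6 CPM in inguinal nodes (SD, n = 16 and 4, edgeR adjusted p = 9.51e-08). Spn, or CD43, a surface protein of nonclassical monocytes, averaged 85.0 ± 10.8 CPM in gut and 141.3 ± 11.4 CPM in inguinal nodes (edgeR adjusted p = 2.48e-08). Treml4, found on the same monocytes and some macrophages, averaged 23.6 ± 3.57 CPM in gut and 17.4 ± 1.63 CPM in inguinal nodes (edgeR adjusted p = 6.35e-05).

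Cxcl16 (ENSMUSG00000018920) was lowest in duodenal and highest in ceco-colonic nodes. Duodenal libraries held 422.3, 330.2, 320.4 and 364.2 CPM, jejunal libraries 397.7, 376.0, 383.8 and 464.9 CPM, ileal libraries 404.7, 462.2, 400.8 and 472.6 CPM and ceco-colonic libraries 560.2, 551.4, 468.8 and 503.5 CPM. Inguinal libraries held 385.1, 409.9, 404.6 and 390.5 CPM, inside the small intestinal range. Small intestinal nodes were lower than ceco-colonic nodes, with a log2 fold change of -0.39 ± 0.071 (edgeR adjusted p = 0.000544). Neighbouring positions were not called, with log2 fold changes of -0.17 ± 0.088 for duodenal against jejunal, -0.10 ± 0.088 for jejunal against ileal and -0.26 ± 0.088 for ileal against ceco-colonic nodes (edgeR adjusted p = 0.297, 0.986 and 0.0597). The last was called in 8 of 29 alternatives, among them DESeq2 (adjusted p = 0.0395). Duodenal against ileal nodes was called at the edge of the threshold (edgeR adjusted p = 0.0414), and the call was lost in 18 of 29 alternatives, with adjusted p up to 0.159 without ileal library 4.

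The exons of Cxcl16 overlap Zmynd15 on the opposite strand, and the sources used here do not say that reads were assigned by strand. Of all distinct stretches of 31 bases in Cxcl16 transcripts, 18.5% also occur in Zmynd15, so reads of the pair cannot be fully told apart. Zmynd15 itself stood at 164.7 ± 26.8 CPM in small intestinal and 304.3 ± 5.35 CPM in ceco-colonic nodes (SD, n = 12 and 4), a log2 fold change of -0.90 ± 0.061 (edgeR adjusted p = 3.62e-09). Zmynd15 is given for this overlap and was picked after its values were seen. The transcript of 1267 bases, Cxcl16-202, shares no such stretch. This transcript is annotated as subject to nonsense-mediated decay. Along the gut its level followed the same order as the gene, with 98.2 ± 3.10 TPM in duodenal, 115.5 ± 6.31 TPM in jejunal, 131.0 ± 11.6 TPM in ileal and 152.4 ± 3.54 TPM in ceco-colonic nodes, and 117.3 ± 3.89 TPM in inguinal nodes (SD, n = 4 each). Its small intestinal libraries reached at most 143.7 TPM and its ceco-colonic libraries at least 149.2 TPM. This gap is not particular to Cxcl16-202: in TPM the whole gene reached at most 343.6 in ileal and at least 369.3 in ceco-colonic libraries. Cxcl16-201 and Cxcl16-203, which share stretches with Zmynd15, kept the same order along the gut. They averaged 122.4 and 29.9 TPM in duodenal and 185.1 and 48.1 TPM in ceco-colonic nodes.

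Cxcr6 (ENSMUSG00000048521), the receptor of CXCL16, changed along the gut in the direction opposite to its ligand. Duodenal libraries held 44.5, 31.95, 29.2 and 30.0 CPM, jejunal libraries 34.0, 22.4, 28.2 and 22.2 CPM, ileal libraries 24.98, 24.0, 21.6 and 16.3 CPM and ceco-colonic libraries 23.8, 22.2, 15.5 and 17.5 CPM. Inguinal libraries held 23.2, 26.6, 29.9 and 21.01 CPM. All duodenal libraries lay above all ileal and all ceco-colonic libraries, while every other pair of gut positions overlapped. Duodenal nodes were higher than ceco-colonic nodes by 0.78 ± 0.18 on the log2 scale (edgeR adjusted p = 0.00398) and than ileal nodes by 0.64 ± 0.18 (edgeR adjusted p = 0.0198).

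Some Cxcr6 calls depended on single libraries. Duodenal libraries 1 and 2 carry pancreatic acinar transcripts at 41140 and 22340 CPM summed over 11 genes, where no other library exceeded 119.4 CPM. With both left out, the edgeR adjusted p was 0.0978 among the 4 gut positions, 0.067 for duodenal against ceco-colonic nodes and 0.223 for duodenal against ileal nodes. The call of duodenal against ileal nodes was also lost without duodenal library 1, without ileal library 4 and with adipocyte level added as a covariate (edgeR adjusted p = 0.0725, 0.0709 and 0.416). Small intestinal against ceco-colonic nodes gave 0.45 ± 0.15 (edgeR adjusted p = 0.0391), and this call was lost in 9 of 29 alternatives, over which adjusted p ran between 0.00841 and 0.157. Libraries whose removal ended it were jejunal 1 and 3, ileal 1 and 2 and ceco-colonic 2, 3 and 4, with adjusted p from 0.0516 to 0.157. Cxcr6 lies within Fyco1 on the opposite strand, with no stretch of 31 bases shared between their transcripts.

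Innate lymphoid and natural killer cells can carry CXCR6. Of 16 of their genes, 4 were higher and 4 lower in small intestinal than in ceco-colonic nodes, beside 8.90% and 7.74% of all genes. Il1rl1, the interleukin 33 receptor of group 2 innate lymphoid cells, stood at 31 ± 5.54 CPM in small intestinal and 14.3 ± 2.49 CPM in ceco-colonic nodes (SD, n = 12 and 4, edgeR adjusted p = 3.43e-06). Eomes, a natural killer cell factor, was lower, at 33.3 ± 3.85 CPM in small intestinal and 45.1 ± 3.48 CPM in ceco-colonic nodes (edgeR adjusted p = 0.00013). Tbx21, or T-bet, was lower at the edge of the threshold (30.1 ± 3.17 and 35.8 ± 3.31 CPM, edgeR adjusted p = 0.0436), and its call was lost in 15 of 29 alternatives. In gut-draining against inguinal nodes 4 of 16 were higher and 8 lower, beside 13.4% and 12.9% of all genes. Il1rl1 averaged 26.8 ± 8.91 CPM in gut and 7.50 ± 0.78 CPM in inguinal nodes (SD, n = 16 and 4, edgeR adjusted p = 2.95e-09). Gata3, which specifies group 2 cells, averaged 27.5 ± 4.12 and 18.7 ± 0.912 CPM there (edgeR adjusted p = 2.16e-05). Il18r1, an interleukin 18 receptor chain, was lower, at 62.0 ± 13.1 CPM in gut and 125.0 ± 5.34 CPM in inguinal nodes (edgeR adjusted p = 9.77e-09), and Zbtb16, which encodes PLZF, was lower too (14.6 ± 4.22 and 22.5 ± 2.96 CPM, edgeR adjusted p = 0.0012).

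**Figure D2:**
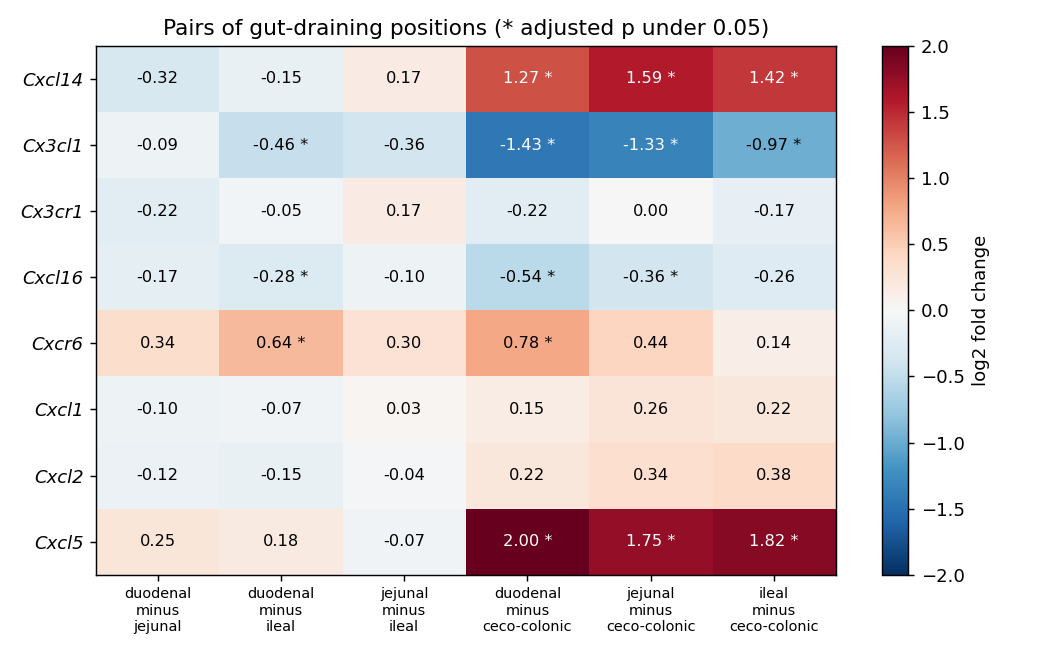
Log2 fold change of each gene for the 6 pairs of gut-draining positions, the first-named position over the second; colour gives the value and a star an edgeR adjusted p under 0.05. The columns against the ceco-colonic node hold 12 of the 15 stars, and in those columns Cx3cl1 and Cxcl16 have the opposite sign to Cxcl14, Cxcl5 and Cxcr6. Calls over all genes were also concentrated there, at 16.4% for duodenal, 12.2% for jejunal and 12.8% for ileal nodes. The shares were 2.83% for duodenal against jejunal, 14.6% for duodenal against ileal and 0.0680% for jejunal against ileal nodes.

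Cxcl1, Cxcl2 and Cxcl5, the ligands of CXCR2, lie in 1 gene cluster on chromosome 5, and only Cxcl5 was called along the gut. Pearson's r of log2 CPM over the 20 libraries was 0.796 for Cxcl1 with Cxcl2. It was 0.678 for Cxcl1 with Cxcl5 and 0.648 for Cxcl2 with Cxcl5. Over the 16 gut libraries the same pairs gave 0.526, 0.424 and 0.366. Cxcl1 (ENSMUSG00000029380) held 4.30, 6.50, 4.16 and 3.42 CPM in duodenal libraries, 4.87, 3.83, 6.01 and 4.98 CPM in jejunal libraries, 4.61, 5.76, 4.39 and 4.48 CPM in ileal libraries and 3.03, 5.37, 3.93 and 4.18 CPM in ceco-colonic libraries. Inguinal libraries held 1.67, 3.80, 2.97 and 2.56 CPM. All gut positions overlapped each other, and the highest inguinal library lay within the gut range. Small intestinal against ceco-colonic nodes gave 0.21 ± 0.19 on the log2 scale (edgeR adjusted p = 0.53), and no pair of gut positions was called.

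Cxcl2 (ENSMUSG00000058427) was the least abundant, with 0.351, 0.663, 0.309 and 0.563 CPM in duodenal, 0.321, 0.429, 0.625 and 0.684 CPM in jejunal, 0.307, 0.805, 0.392 and 0.60 CPM in ileal and 0.331, 0.458, 0.266 and 0.563 CPM in ceco-colonic libraries. Inguinal libraries held 0.135, 0.286, 0.240 and 0.220 CPM. At the depth of the shallowest library 1 CPM stands for 148 estimated counts. Of the 31-base stretches of Cxcl2, 7.59% also occur in Cxcl3 of the same cluster. Small intestinal against ceco-colonic nodes gave 0.31 ± 0.28 on the log2 scale, which was not called (edgeR adjusted p = 0.532).

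Cxcl5 (ENSMUSG00000029371), by contrast, had a sharp step at the ceco-colonic position. Duodenal libraries held 5.23, 6.14, 4.002 and 4.39 CPM, jejunal libraries 4.28, 4.89, 3.68 and 3.78 CPM and ileal libraries 3.61, 5.58, 4.01 and 4.24 CPM. Ceco-colonic libraries held 0.922, 1.31, 1.21 and 1.49 CPM, and inguinal libraries 0.761, 1.70, 0.888 and 1.45 CPM. No small intestinal library overlapped the ceco-colonic range, whereas ceco-colonic and inguinal libraries overlapped. Small intestinal nodes were higher than ceco-colonic nodes by 1.86 ± 0.20 on the log2 scale (edgeR adjusted p = 1.15e-06). Within the small intestine the pairs differed by -0.07 to 0.25 on the log2 scale and none was called. Ceco-colonic nodes stood 0.04 ± 0.22 above inguinal nodes on the log2 scale.

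In the 3 gene lists below, the genes called were lower in small intestinal nodes, in which Cxcl5 was higher. Among all genes tested, 8.90% were called higher and 7.74% lower. The first list holds 9 further chemokine, receptor and decoy genes, not all of them tied to CXCR2. None of the 9 was higher and 3 were lower in small intestinal than in ceco-colonic nodes. Cxcr2 itself stood at 13.5 ± 2.33 CPM in small intestinal and 23.6 ± 4.41 CPM in ceco-colonic nodes (SD, n = 12 and 4, edgeR adjusted p = 5.79e-06). Of 12 neutrophil genes none was higher and 3 were lower, among them Ltf, lactoferrin of neutrophil granules, at 1.03 ± 0.384 and 1.80 ± 0.398 CPM in those groups (edgeR adjusted p = 0.0209). Retnlg, a neutrophil gene, stood at 6.76 ± 3.31 and 10.9 ± 2.59 CPM (edgeR adjusted p = 0.0419). The Ltf call was lost in 5 and the Retnlg call in 14 of 29 alternatives. Of 19 tested inflammatory cytokine, receptor and regulator genes, a list that also holds Lcn2, none was higher and 4 were lower. Il6, which encodes the cytokine interleukin 6, stood at 2.12 ± 0.529 CPM in small intestinal and 3.79 ± 0.789 CPM in ceco-colonic nodes (edgeR adjusted p = 0.000872). Csf2, which encodes GM-CSF, stood at 1.98 ± 0.274 and 2.78 ± 0.622 CPM (edgeR adjusted p = 0.0171), and its call was lost without ceco-colonic library 1 or 2 and with the adipocyte covariate.

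Against the inguinal node, 26.3% of all genes were called in gut-draining nodes, 13.4% higher and 12.9% lower, and 6 of the 8 genes were, 5 of them higher and 1 lower. Since this contrast is treated as the one that chose the genes, nothing is read from that count. Log2 fold changes were 4.75 ± 0.23 for Cxcl14, 1.43 ± 0.19 for Cxcl5, 1.10 ± 0.29 for Cxcl2, 0.74 ± 0.19 for Cxcl1 and 0.52 ± 0.071 for Cx3cr1. Cxcl16 stood at 0.10 ± 0.070 and Cxcr6 at -0.01 ± 0.14, both within 2 SE of 0. The Cxcl5 value is a mean over 3 small intestinal positions near 2 and a ceco-colonic position near 0 on the log2 scale. By position, Cxcl5 gave 2.04 ± 0.22 (duodenal), 1.79 ± 0.22 (jejunal) and 1.86 ± 0.22 (ileal). Cxcl1 and Cxcl2 were between 0.58 and 0.84 and between 0.86 and 1.24 on the log2 scale at the 4 positions.

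**Figure D3:**
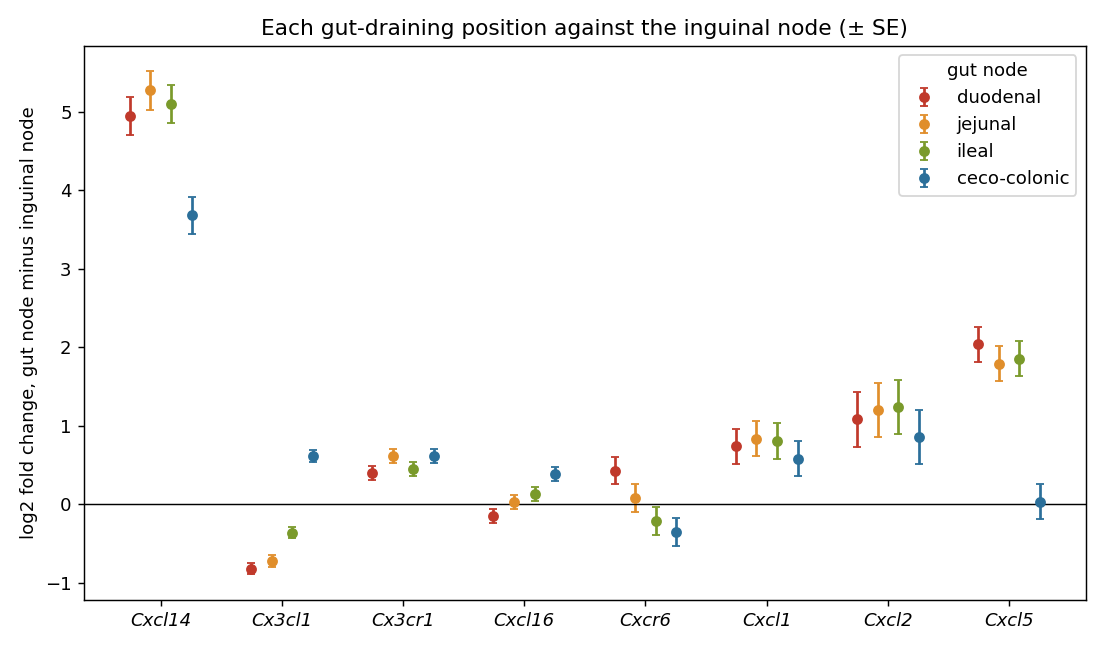
Log2 fold change (± SE) of each gene at the 4 gut-draining positions against the inguinal node; the 4 values of a gene share the inguinal libraries. Cx3cl1 lies below 0 at the 3 small intestinal positions and above 0 at the ceco-colonic position, and Cxcl5 falls to 0.04 at the ceco-colonic position.

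In the same contrast, the list of inflammatory cytokine, receptor and regulator genes, with Lcn2, had 8 genes higher and 2 lower of 19 tested. Il6 averaged 2.54 ± 0.941 CPM in gut and 0.382 ± 0.0627 CPM in inguinal nodes (SD, n = 16 and 4, edgeR adjusted p = 4.4e-09), and Il1b, interleukin 1 beta, averaged 29.4 ± 5.86 and 15.03 ± 4.47 CPM (edgeR adjusted p = 0.000125). Il17ra, the interleukin 17 receptor chain, was lower, at 69.1 ± 7.53 CPM in gut and 107.5 ± 6.04 CPM in inguinal nodes (edgeR adjusted p = 1.57e-08). Lcn2, lipocalin 2 of neutrophils and epithelia, was also lower, at 2.47 ± 0.667 and 4.36 ± 1.51 CPM (edgeR adjusted p = 0.00035). Neutrophil genes had none higher and 7 lower of 12, including Camp, which encodes an antimicrobial peptide, at 0.309 ± 0.133 CPM in gut and 1.32 ± 0.669 CPM in inguinal nodes (edgeR adjusted p = 1.57e-06). Ngp, a granule protein gene, stood at 1.28 ± 0.555 and 5.34 ± 1.76 CPM (edgeR adjusted p = 1.54e-07). Of the 9 further chemokine, receptor and decoy genes, not all tied to CXCR2, none was higher and 4 were lower. Pf4, platelet factor 4, averaged 2.94 ± 0.525 CPM in gut and 4.79 ± 0.657 CPM in inguinal nodes (edgeR adjusted p = 7.67e-05), and Ackr1, the endothelial decoy receptor, averaged 14.2 ± 2.99 and 22.1 ± 1.79 CPM (edgeR adjusted p = 7.91e-05).

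Transcript tables gave the share of each gene carried by its most abundant transcript. Shares were compared for the 6 genes with several transcripts at 5% or more by exact permutation tests (two-sided), 12 in all, with Benjamini-Hochberg adjustment over the 12. Cxcl5-201, the protein-coding transcript, made up 59.8% ± 5.68 of Cxcl5 TPM in small intestinal and 77.2% ± 8.73 in ceco-colonic nodes (SD, n = 12 and 4, exact permutation adjusted p = 0.00659). The remainder is Cxcl5-202, annotated as a retained intron. Its level was 1.55 ± 0.231 TPM in small intestinal and 0.24 ± 0.0316 TPM in ceco-colonic nodes, while Cxcl5-201 stood at 2.36 ± 0.599 and 0.878 ± 0.26 TPM. Both transcripts were thus higher in small intestinal nodes, without overlap between the groups.

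The other 5 genes compared between small intestinal and ceco-colonic nodes did not pass. Between gut-draining and inguinal nodes the shares are given as a description. Cxcl2-201 made up 60.9% ± 12.7 of Cxcl2 in gut-draining and 38.8% ± 11.4 in inguinal nodes (SD, n = 16 and 4), and the groups overlapped. Cxcl16-201 made up 47.6% ± 1.85 in gut-draining and 51.8% ± 1.60 in inguinal nodes, and it is 1 of the transcripts that share sequence with Zmynd15. Cx3cl1-201 made up 79.2% ± 3.47 in gut-draining and 72.1% ± 2.95 in inguinal nodes. As a share of estimated counts, in which short transcripts weigh less, that difference was 1.29 in place of 7.10 percentage points.

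**Figure D4:**
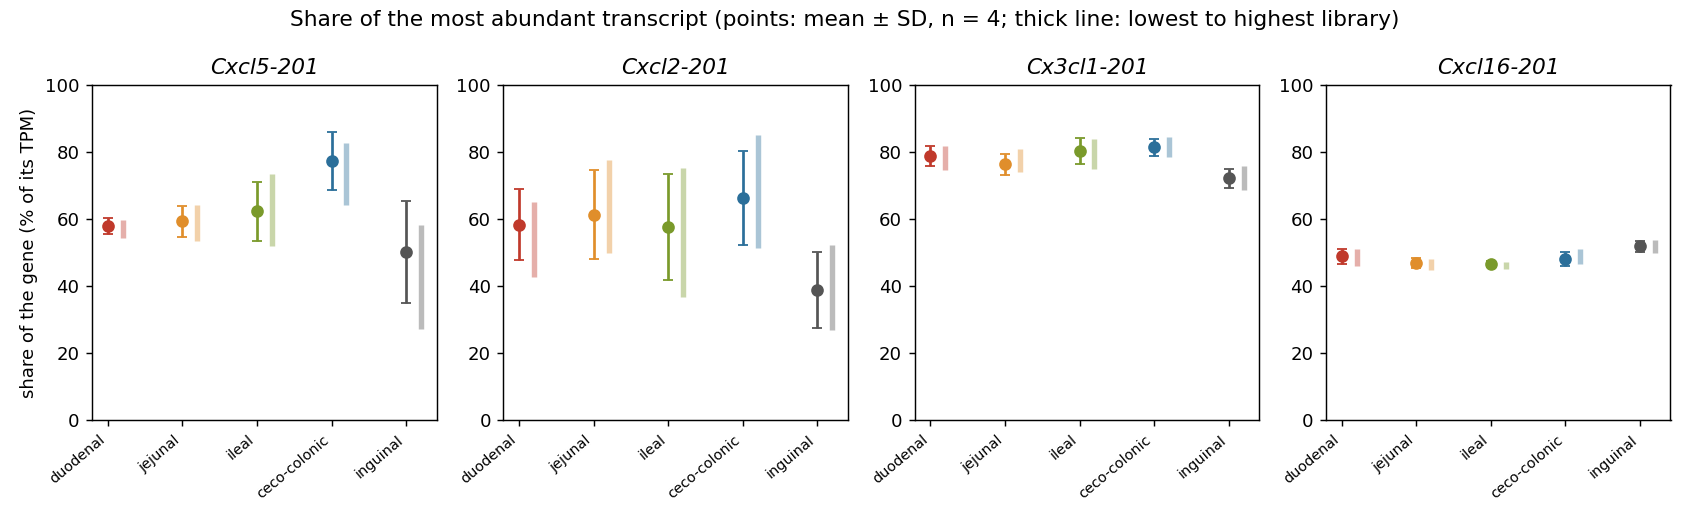
Share of the gene's TPM (%) carried by the named transcript at each position; points with bars are the mean ± SD of 4 libraries and thick lines run from the lowest to the highest library. The Cxcl5-201 share is highest in ceco-colonic nodes at 77.2%, and the Cxcl2-201 share is lowest in inguinal nodes at 38.8%.

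For each of the 8 genes, the 3 genes with the most similar profile were sought by Pearson's r of log2 CPM over the 20 libraries, among 11635 genes. These libraries share position, so r describes likeness and carries no test. Cxcl14 was most like Wnt2b (r = 0.988), a Wnt ligand, Gpr55 (0.983), a lysophospholipid receptor, and Fcna (0.979), ficolin A. Wnt2b averaged 27.6 CPM in gut and 3.42 CPM in inguinal nodes. Cx3cl1 was most like Thbs2 (0.961), a matricellular thrombospondin, Zmynd15 (0.96) and Slco2a1 (0.948), a prostaglandin transporter. Cx3cr1 was most like Itih3 (0.91), Nlrp1a (0.898), an inflammasome sensor, and Susd6 (0.893). For Cxcl16 they were Dok1 (0.979), an adaptor of immune receptors, Tnfrsf4 (0.93), or OX40, and Lsp1 (0.924), a leukocyte actin-binding protein. For Cxcr6 they were Tasp1 (0.93), Trbc2 (0.928), a T-cell receptor constant segment that innate lymphoid cells can also transcribe, and Klrb1b (0.91), a receptor of natural killer cells. Likeness was weaker for Cxcl1, with Rgs4 (0.805), Dlg3 (0.796) and Il1b (0.786), and for Cxcl2, with Tgtp1 (0.852), an interferon-induced GTPase, Kctd5 (0.849) and Zdhhc21 (0.833). Cxcl5 was most like Klri1 (0.946), a natural killer receptor, Chic1 (0.944) and Aox3 (0.941), an aldehyde oxidase.

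Depth was 148.2 to 304.6 M estimated counts per library. Lymph node stroma genes were present everywhere: 8 of them summed to 2485 to 4787 CPM in small intestinal and 5280 to 6211 CPM in ceco-colonic nodes, without overlap, and none was higher and 4 were lower in small intestinal nodes. In inguinal nodes they summed to 3034 to 3785 CPM. Several marker lists moved with the comparisons above, and their part in the results was not tested unless stated. Beside the counts in this paragraph, 8.90% of all genes were called higher and 7.74% lower in small intestinal against ceco-colonic nodes. In gut-draining against inguinal nodes these shares were 13.4% and 12.9%. In small intestinal against ceco-colonic nodes, 11 blood and lymphatic endothelial genes summed to 1706 to 2486 and 1493 to 1638 CPM, with 6 of 11 higher and none lower. Smooth muscle genes, a list of 8, summed to 375.6 to 1478 CPM in small intestinal and 530.3 to 589.5 CPM in ceco-colonic nodes, with 1 higher and 2 lower, and duodenal libraries 2 and 3 stood highest. Mesothelial genes summed to 15.4 to 31.5 CPM in small intestinal and 9.00 to 11.2 CPM in ceco-colonic nodes (7 genes, 2 higher), and intestinal epithelial genes to 20.9 to 26.9 and 16.3 to 17.5 CPM (9 genes, 4 higher and 2 lower). Adipocyte genes summed to 199.7 to 2761 CPM in small intestinal and 259.9 to 569.3 CPM in ceco-colonic nodes (10 genes, 3 higher and none lower). With the adipocyte level as a covariate, the log2 fold change of small intestinal against ceco-colonic nodes was 1.33 for Cxcl14, -1.19 for Cx3cl1, 1.97 for Cxcl5, -0.30 for Cxcl16 and 0.62 for Cxcr6, all still called. Without duodenal libraries 1 and 2 it was 1.47, -1.22, 1.78 and -0.41 for the first 4 of these, all called, and 0.39 for Cxcr6, which was not called (edgeR adjusted p = 0.0691). In gut-draining against inguinal nodes, 15 fibroblast and reticular cell genes summed to 4170 to 5447 CPM and 3382 to 4144 CPM, with 8 higher and 3 lower. Lymphocyte genes, a list of 8, summed to 217.2 to 275.7 CPM in gut-draining and 297.6 to 341 CPM in inguinal nodes. Of these 8, 2 were higher and 2 lower, and their median log2 fold change was 0.021. Cd3e stood at 0.386 ± 0.157 CPM in gut-draining and 0.765 ± 0.26 CPM in inguinal nodes (SD, n = 16 and 4).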

How the data were processed

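Bulk polyA RNA of 20 libraries was measured, 4 per position. PicoPure RNA isolation and NEBNext poly(A) library preparation are named per the labels' protocols. Kallisto, edgeR and limma, and the builds mm10 and GRCm39, are named per the submitters' processing notes; their versions and roles are not stated there. The deposited gene table holds expected (estimated) counts for 56258 genes, and the authors' transcript tables hold estimated counts and TPM for 149419 transcripts.

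Estimated counts were rounded and fitted with edgeR 4.0.16 (R 4.3.3; limma 3.58.1) after filterByExpr (minimum count 10, minimum total 15) and TMM scaling. A single quasi-likelihood fit held all 20 libraries, with 1 mean per position. A prior count of 2 entered log2 CPM. The 8 genes and the lists were chosen with earlier results of these data known. The text names all 8 genes. From 6 lists it names, per contrast, the 2 highest and 2 lowest called genes at 1 CPM or more, and it adds the 3 most alike genes at 5 CPM or more. A gene that this rule names is not reported here. The script was tested on simulated counts. Alternatives were DESeq2 1.42.0, its size factors, limma-voom, no filter, transcript sums, a replicate block, an adipocyte covariate, gut libraries alone, and leaving out libraries. Protein sequences were not used here. The 31-base comparison used the transcripts of the GRCm38 reference, not those of the authors.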

Additional observations from a re-analysis of the deposited data

Results flagged for a closer look

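Cx3cl1 differed from the inguinal node in opposite directions at different gut positions. It was lower at the 3 small intestinal positions and higher at the ceco-colonic position, and the direct tests of the positions gave log2 fold changes of -1.43 for duodenal, -1.335 for jejunal and -0.97 for ileal against ceco-colonic nodes, all called by edgeR. Of 40 sets of 4 libraries (8 genes at 5 positions), 1 held a library far from the others: Cxcl1 stood at 5.76 CPM in ileal library 2, against 4.39 to 4.61 CPM in the other ileal libraries. Chance places about 1 set in 20 beyond this limit.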

How the results depend on the processing

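Under 29 alternatives the number of the 8 genes called was 4 to 6 among the gut positions and 4 to 5 for small intestinal against ceco-colonic nodes. It was 13 to 18 of 48 over the 6 pairs of gut positions. Over all genes, the alternatives called 4285 to 7959 among the gut positions and 2739 to 5575 for small intestinal against ceco-colonic nodes. Such a count was not made for the pairs, and whether the number of the 8 genes called follows it was not tested. Of 104 gene results, none changed direction when called, and 83 kept their side of the threshold in every alternative. Cxcl14, Cx3cl1, Cxcl5 and Cxcl16 stayed called in small intestinal against ceco-colonic nodes in all 29. With the adipocyte level as a covariate, 2739 genes were called in that comparison in place of 4894; the cause was not tested. Leaving out 1 library each gave 3576 to 5445.

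Replicate numbers were not treated as pairs in the main fit, because the labels do not say what they stand for. Same-numbered libraries of different positions were nonetheless more alike. Their deviations from the position means had a median r of 0.27, beside -0.08 for different numbers. Of 40 same-numbered pairs of libraries, 30 had an r over 0.1, and 11 of 20 libraries correlated best with their own number. The main fit leaves this likeness out. With the replicate number as a block, 5 genes of the 8 were called among the gut positions, 18 in the 6 pairs, and 5575 genes in all in small intestinal against ceco-colonic nodes. The block also called jejunal against ileal nodes for Cx3cl1 (edgeR adjusted p = 0.0169), ileal against ceco-colonic nodes for Cxcl16 (0.0434) and jejunal against ceco-colonic nodes for Cxcr6 (0.0382). Cxcl2 lay under 1 CPM, and its coefficient of variation within a gut position was 32.7% to 42.4%; how far depth limits it was not tested.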
